A study of Homo sapiens with 4 samples.

Results

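SDC1, EFNB1, EPS8L2, RGS12, GASK1B (FAM198B in the study) and TP53INP1 are 6 of the genes that the study named as responsive to p53. They are among 20098 protein-coding genes on the 22 autosomes and X. The study's list of PCR primers also held NDRG, COL17A1, TP63 and SERPINB5, which are not covered here. The 6 genes were taken by name. Every ATAC-seq peak in the gene body or within 100 kb of the 5′ end of the gene was listed. ATAC-seq marks open chromatin by where the Tn5 transposase inserts its adapters, and a peak is a stretch with more insertions than its surroundings. The data were 4 libraries with a peak list each: 2 biological replicates of parental MCF10A, an immortalized human mammary epithelial line, and 2 of the same line after transformation by the HRas oncogene. The transformed cells, called G12V, had received an HRas G12V overexpression vector by lentiviral transduction together with a GFP vector used to follow how well transduction worked, and had been selected with hygromycin. G12V cells thus differed from the parental cells by the vectors and by this selection. Per the study they also stopped growing at first and resumed growth only after a few weeks. The medium was DMEM with added cholera toxin, epidermal growth factor, insulin, hydrocortisone and horse serum. The study measured their response to Nutlin-3a, which activates p53, in MCF10A by PCR and RNA-seq. It chose genes that were down-regulated after HRas transformation and had the p53 motif in accessible regions that it called lost. Those regions were called from the pooled reads of these same libraries. What is found at these genes here in that direction is therefore not independent evidence. The study linked regions to genes through shared chromosomal domains of frequent contact, mapped by Hi-C, and not through a 100 kb window. It also searched motifs by another method, HOMER. A region that it linked to a gene may thus lie outside the stretch searched here or be missed by this search.

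p53 is a transcription factor that is stabilized by DNA damage and other stress. It binds as a tetramer to a pair of 10-base repeats, each built around a C and a G that are rarely replaced, and it raises the transcription of genes that stop the cell cycle, repair DNA or start apoptosis. Oncogenic Ras is itself known as a stress that can activate p53.

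The 6 genes had 46 regions, each a stretch covered by peaks that overlapped by at least 1 bp, of 60886 regions in all libraries together. A region was called lost when both MCF10A libraries and neither G12V library had a peak there, and gained in the opposite case. A total of 2 regions were lost (both inside SDC1), 1 was gained (near EPS8L2) and 3 were in all 4 lists. In 4 of the 6 genes, a region with a peak in MCF10A libraries only also held a match to the p53 motif. These matches are shown because they are the p53 matches inside accessible regions of these genes. Coordinates are hg19, the strand printed is the plus strand, capitals mark the 20-base match, and lower case is the flanking sequence. At EPS8L2 and RGS12 the match alone is printed.

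SDC1, chr2:20412424-20412443, intron: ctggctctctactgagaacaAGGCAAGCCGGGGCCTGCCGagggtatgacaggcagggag
EPS8L2, chr11:707015-707034, intron: AGGCAGGGCCGGGCATGCCC
GASK1B, chr4:159092507-159092526, coding exon: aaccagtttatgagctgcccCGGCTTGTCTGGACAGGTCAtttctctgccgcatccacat
RGS12, chr4:3387408-3387427, exon outside the coding sequence: TGACTTGTCTGTTCTTGTCC

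None of these was a perfect copy of the motif. Counted from 1 at the 5′ end of the printed strand, the SDC1 match departed from the motif at positions 10, 15 and 20. The EPS8L2 match departed at positions 6 and 8. The GASK1B match departed at positions 1, 16 and 20, and the RGS12 match at positions 1, 12 and 13. The search allowed up to 3 mismatches outside the central C and G of each 10-base repeat and no spacer between the repeats. The EPS8L2 match also lies in an exon of DEAF1, outside its coding sequence, and the GASK1B match also lies in an exon of GASK1B-AS1.

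The 2 lost regions and the gained region are shown, because on them both replicates of a cell type were alike and differed from the other cell type. Each is shown as a 150-base window at the midpoint of its best peak by score rank within a list. Below, this is called the central window, although it can lie off the middle of the merged region. All letters are in lower case, since none of the windows held a p53 match or an AP-1 site.

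SDC1 lost, chr2:20412665-20412814, intron: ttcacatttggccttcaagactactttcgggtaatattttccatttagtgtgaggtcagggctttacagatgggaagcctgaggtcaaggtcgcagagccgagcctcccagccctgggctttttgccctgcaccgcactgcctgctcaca
SDC1 lost, chr2:20417661-20417810, intron: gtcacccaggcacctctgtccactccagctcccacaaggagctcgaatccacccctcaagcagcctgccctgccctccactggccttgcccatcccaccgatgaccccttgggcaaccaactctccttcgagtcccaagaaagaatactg
EPS8L2 gained, chr11:606517-606666, overlapping a coding exon of PHRF1: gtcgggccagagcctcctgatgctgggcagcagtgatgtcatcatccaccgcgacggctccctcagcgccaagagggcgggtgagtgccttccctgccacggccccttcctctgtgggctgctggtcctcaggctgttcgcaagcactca

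The window of the second SDC1 region held a CTCF match with up to 1 mismatch. G and C made up 53.3% of the first window, 60.7% of the second and 66% of the gained one. Outside that window, but near the middle of the merged region, the second SDC1 lost region held an AP-1 site, the sequence that dimers of Fos and Jun bind. It is printed with its flanks and with the site in capitals.

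SDC1 lost, chr2:20417499-20417505, intron: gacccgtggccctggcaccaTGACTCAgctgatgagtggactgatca

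Peak lists differed in length more between replicates than between cell types. After peaks on Y were left out, the replicate 1 lists held 12888 peaks in MCF10A and 14042 in G12V, and the replicate 2 lists held 34463 and 46673. Read depth is unknown, and a locus just under the threshold of the peak caller counts as empty. Of 10 mammary epithelial marker genes, between 0 and 4 had a promoter peak in a library, and KRT5, KRT14, KRT6A and CDH1 had none in any. Of 9 markers of blood, endothelium, fibroblasts, muscle and fat, between 1 and 3 had one, so promoter peaks did not separate the labelled cell type from the others. A further planned marker, PECAM1, was not matched among the protein-coding genes used and was left out. Each score below is the MACS peak score, and each percentile is the share of the peaks of that list with a score no higher.

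**Figure D1:**
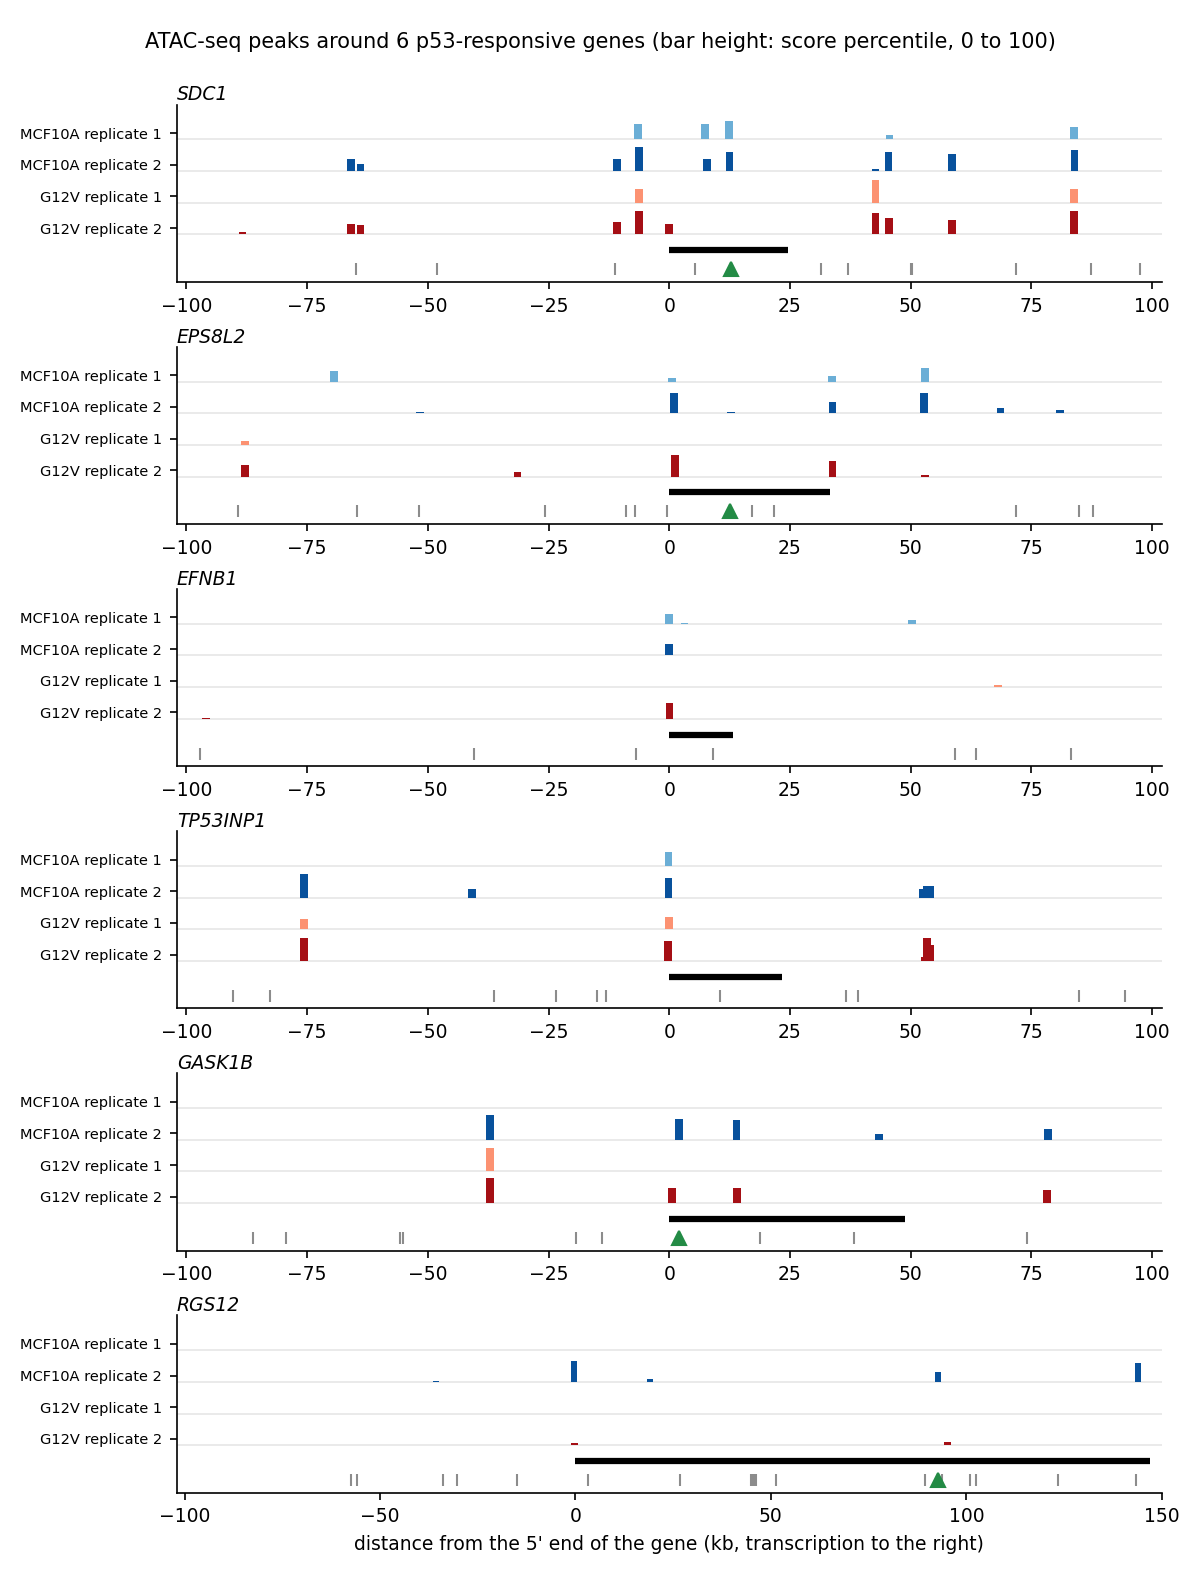
Peaks at each gene by distance in kb from its 5′ end (x axis), with 1 row per library and bars whose height is the score percentile from 0 to 100. The black line is the gene, grey ticks are p53 motif matches outside accessible regions and green triangles are the 4 matches inside them, each under a peak of MCF10A libraries only.

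The map of peaks shows where each library had accessible chromatin around the 6 genes. Of the 46 regions, 18 touched the gene's own body, and 11 lay at a promoter of the gene itself (1000 bp upstream to 500 bp downstream of any annotated start). Another 8 lay only at a promoter of a neighbouring protein-coding gene, 8 only in the body of such a neighbour, and 12 outside protein-coding genes and their promoters. How crowded the loci were differed widely. EPS8L2 shared its 200 kb with 11 other protein-coding genes, TP53INP1 with 3, RGS12 with 2, SDC1 and GASK1B with 1 each and EFNB1 with none.

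SDC1 (ENSG00000115884.11, chr2:20400558-20425194, minus strand) encodes syndecan-1, a heparan sulfate proteoglycan of the epithelial cell surface that binds matrix proteins and growth factors. It was the gene with the most regions, 12, and the only one of the 6 with a lost region. Its first lost region, chr2:20412168-20413310, lay in an intron 11884 bp downstream of the 5′ end. The peak there scored 80.15 in MCF10A replicate 1 (percentile 71.4) and 115.27 in MCF10A replicate 2 (percentile 75.8). This is the region with the printed SDC1 p53 match, which lay 305.5 bp from the centre of the region. The second lost region, chr2:20417092-20418013, lay in an intron 7181 bp downstream of the 5′ end, with scores of 71.95 (percentile 61.5) and 69.32 (percentile 47.1). Neither G12V list had a peak overlapping either region, although the G12V replicate 2 list was the longest of the 4. In a library made from many cells, fewer cells with an open site and a site less open in each cell cannot be told apart.

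Outside the gene body SDC1 was alike in the 4 libraries at 2 regions. The first, chr2:20430884-20431910, lay 5690 bp upstream of the 5′ end and stood at percentile 61.1 and 94.2 in MCF10A and 53.8 and 94.2 in G12V. The second, chr2:20340755-20341846, lay 83348 bp downstream and stood at percentile 50.1 and 83.6 in MCF10A and 55.6 and 93.7 in G12V. Both regions had an AP-1 site in their central window. The SDC1 promoter itself, chr2:20424784-20425759, had a peak in G12V replicate 2 only, with a score of 62.16 (percentile 39.5). The intron was thus open in MCF10A and not listed in G12V, while the promoter peak went the other way in a single library.

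A further region, chr2:20381994-20382926, lay 42268 bp downstream of the SDC1 start. Its percentile was 89.7 in G12V replicate 1 and 84.1 in G12V replicate 2. In MCF10A it had no peak in replicate 1, and in replicate 2 it was at percentile 9.65 with a score of 45.89. It became a gained region when each list was cut to its best 12888 peaks, the length of the shortest list. In those equal lists the second intron region was no longer lost, because the MCF10A replicate 2 peak fell out. A region 44981 bp downstream of the start, chr2:20379261-20380213, became lost in its place (percentile 18.3 and 74.7 in MCF10A and 66.2 in G12V replicate 2).

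EFNB1 (ENSG00000090776.6, chrX:68048864-68062003, plus strand) encodes ephrin-B1, a membrane-bound ligand of Eph receptors in signalling between neighbouring cells. Its promoter region, chrX:68048445-68049207, was open in both MCF10A libraries and in G12V replicate 2. The scores were 58.96 and 65.79 in MCF10A and 94.5 in G12V replicate 2, at percentiles 37.3, 43.3 and 64. G12V replicate 1 had no peak at the promoter. The other 4 EFNB1 regions were each in 1 library, at percentiles from 3.90 to 13.9, and none held a p53 match. Within the stretch searched here, the gene had no lost and no gained region.

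EPS8L2 (ENSG00000177106.17, chr11:694438-727727, plus strand) encodes a relative of EPS8, a family of adaptors that link growth factor receptors to actin remodelling. It had 11 regions, of which 6 had a peak in MCF10A libraries only and 2 in G12V libraries only. The region with the highest percentile lay at chr11:694755-696101, just downstream of its 5′ end and at promoters of DEAF1 and TMEM80 too. Its scores were 48.91 in MCF10A replicate 1, 126.02 in MCF10A replicate 2 and 178.47 in G12V replicate 2, at percentiles 15.02, 79.2 and 85.2, with no peak in G12V replicate 1. A peak there cannot be assigned to 1 of the 3 genes.

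The region with the printed EPS8L2 p53 match, chr11:706769-707693, lay at an inner promoter of EPS8L2 and a promoter of DEAF1. It was in MCF10A replicate 2 alone, with a score of 44 at percentile 6.47, so it was among the weakest peaks of that list. An inner promoter at chr11:726491-726897 was also in MCF10A replicate 2 alone, at percentile 1.92. The gained region, chr11:606394-606789, lay in PHRF1, 87649 bp upstream of EPS8L2, with scores of 48.86 (percentile 15.7) and 66.64 (percentile 44.3) in G12V. With equal lists it was in G12V replicate 1 alone and so no longer gained. A region at the TALDO1 promoter, chr11:746854-747684, was at percentile 52.4 and 80.2 in MCF10A and at 5.44 in G12V replicate 2. TALDO1 encodes transaldolase of the pentose phosphate pathway. In equal lists this region was lost.

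RGS12 (ENSG00000159788.20, chr4:3294748-3441640, plus strand) encodes a regulator that speeds the GTPase of G protein alpha subunits and so ends their signal. No peak was listed at it in MCF10A replicate 1 or G12V replicate 1. Its 5′ promoter, chr4:3293816-3294933, was at percentile 83.3 in MCF10A replicate 2 (score 142.24) and at 9.07 in G12V replicate 2 (score 43.6). The inner promoter with the printed RGS12 p53 match, chr4:3387108-3387771, was in MCF10A replicate 2 alone (score 63.32, percentile 40.5). Of 6 RGS12 regions, 4 were in MCF10A replicate 2 alone and 1 in G12V replicate 2 alone, so the gene rests on the longer list of each cell type.

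GASK1B (ENSG00000164125.16, chr4:159045626-159094470, minus strand) encodes a Golgi-associated protein of a kinase-like family. The region with the printed GASK1B p53 match, chr4:159092193-159092833, lay 1637 bp downstream of the 5′ end, at an inner promoter of GASK1B and a promoter of its antisense neighbour GASK1B-AS1. It was in MCF10A replicate 2 alone, with a score of 140.47 at percentile 83. Of all MCF10A replicate 2 peaks at percentiles from 80 to 90, 10.4% had no overlapping peak in G12V replicate 2. The 5′ promoter, chr4:159093524-159094277, was in G12V replicate 2 alone (score 88.17, percentile 60.6). A further inner promoter, chr4:159080100-159080819, was in both replicate 2 libraries, at percentile 80.0 in MCF10A and 61.4 in G12V. The highest percentile at any of the 6 genes was at the TMEM144 promoter, 36756 bp upstream of GASK1B, with 96.9 in MCF10A replicate 2, 93.3 in G12V replicate 1 and 98.7 in G12V replicate 2.

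TP53INP1 (ENSG00000164938.14, chr8:95938200-95961606, minus strand) encodes a stress-induced nuclear protein that is itself induced by p53 and takes part in cell cycle arrest, apoptosis and autophagy. Its promoter was the only promoter of the 6 genes open in all 4 libraries, at chr8:95961379-95962201. The percentiles were 57.1 and 75.9 in MCF10A and 46.8 and 79.5 in G12V, so the groups overlapped. The same stretch is a promoter of NDUFAF6. A region at a further NDUFAF6 promoter, 75161 bp upstream of TP53INP1, was at percentile 92.9 in MCF10A replicate 2 and at 41.6 and 89.9 in G12V. Another 3 regions, at promoters of CCNE2 and NDUFAF6, were in both replicate 2 libraries. Within the stretch searched here, no TP53INP1 region held a p53 match, and none was lost or gained. The domain through which the study linked regions to TP53INP1 was not searched.

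**Figure D2:**
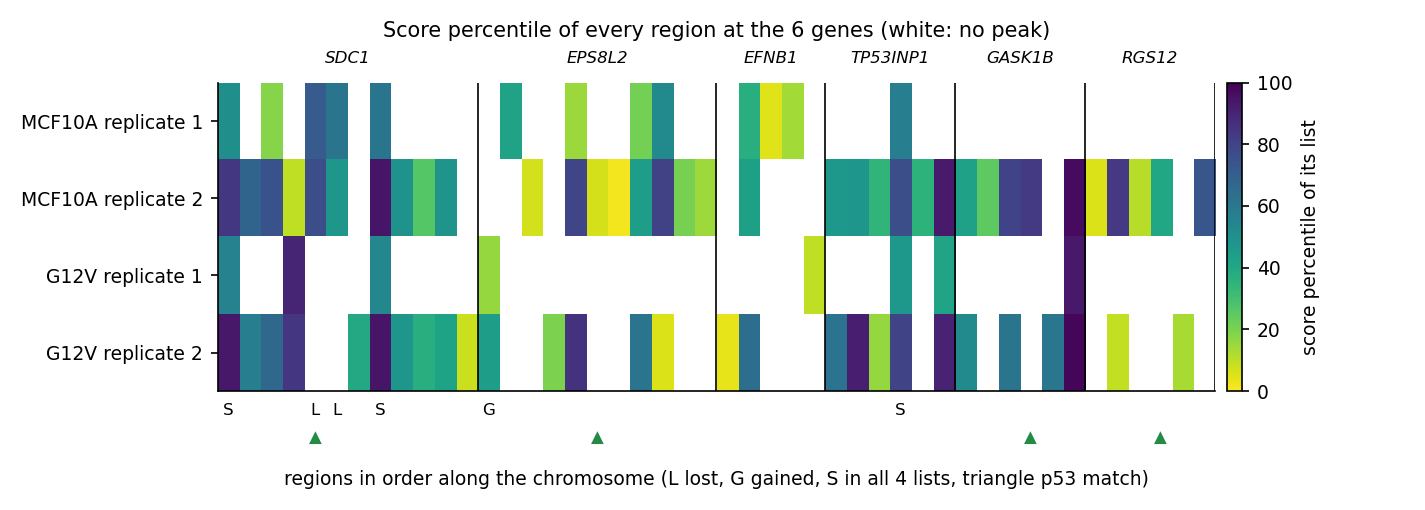
Score percentile of each of the 46 regions (columns, in chromosome order within a gene) in each library (rows), with white for no peak. L marks the 2 lost regions, G the gained region, S the 3 regions in all 4 lists, and triangles the 4 regions with a p53 match, which have no peak in either G12V row.

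The map of percentiles shows that most regions were not replicated within a cell type. A total of 22 regions were in a single library, 12 of them in MCF10A replicate 2, 6 in G12V replicate 2, 3 in MCF10A replicate 1 and 1 in G12V replicate 1. Another 10 were in both libraries of the same replicate number and no other, and 8 were in 3 libraries. Of all regions, 2.14% were lost and 3.2% were gained, so 2 lost and 1 gained of 46 compare with these shares. A lost region was found at 1 of the 6 genes, SDC1, and at 10% of all protein-coding genes. A gained region was found at 1 of the 6, EPS8L2, and at 16% of all. SDC1 was among 205 genes with 2 or more lost regions.

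At the 6 genes 17 of the 46 regions had a peak in MCF10A libraries only, 8 in G12V libraries only and 21 in both cell types. Over all regions 20.8% were in MCF10A libraries only, 40.9% in G12V libraries only and 38.3% in both. In replicate 2, with the longer lists, 14 of 35 MCF10A peaks at the 6 genes (40%) had no overlapping G12V peak, beside 32.6% of all MCF10A replicate 2 peaks. In the other direction 7 of 28 G12V peaks (25%) had no MCF10A counterpart, beside 51.2% of all G12V replicate 2 peaks.

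**Figure D3:**
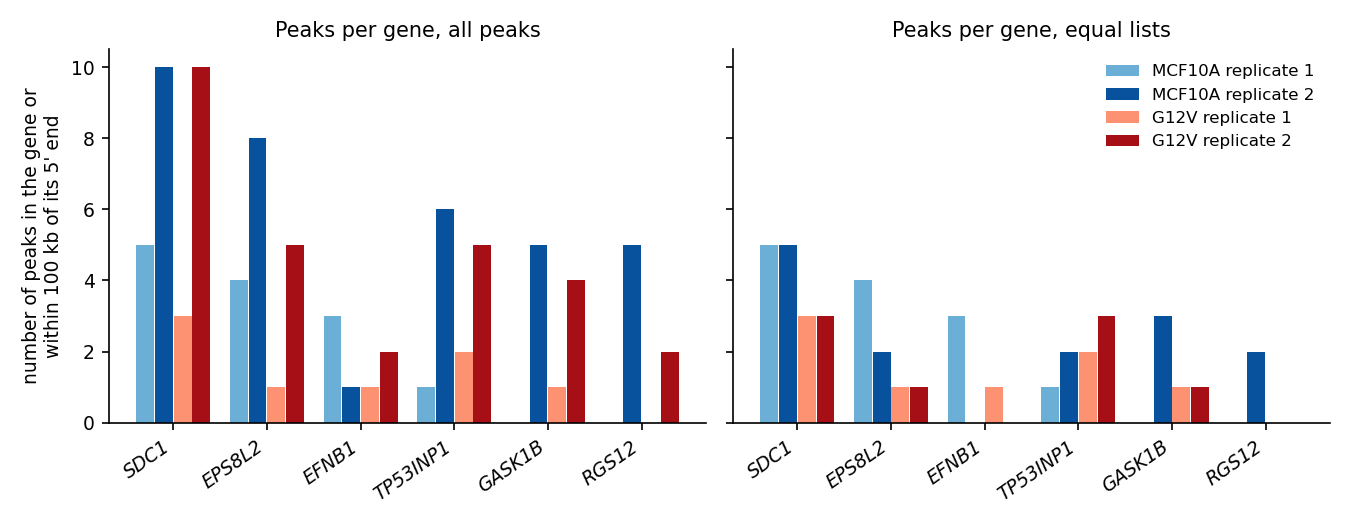
Number of peaks in each gene or within 100 kb of its 5′ end, with 1 bar per library, for all peaks (left) and for the best 12888 peaks of every list (right). With equal lists both G12V bars are below both MCF10A bars at SDC1 and EPS8L2.

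Counting peaks gene by gene asked whether the G12V cells had fewer accessible sites around these genes. The plot of peaks per gene gives the number in each library. SDC1 had 5 and 10 peaks in MCF10A and 3 and 10 in G12V, or 7.5 ± 3.54 and 6.5 ± 4.95 (SD, n = 2). EPS8L2 had 4 and 8 in MCF10A and 1 and 5 in G12V, or 6 ± 2.83 and 3 ± 2.83 (SD, n = 2). The groups overlapped at both genes, although EPS8L2 had 3 fewer peaks in G12V within each replicate number.

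RGS12 had 0 and 5 peaks in MCF10A and 0 and 2 in G12V, or 2.5 ± 3.54 and 1 ± 1.41 (SD, n = 2). EFNB1 had 3 and 1 in MCF10A and 1 and 2 in G12V, or 2 ± 1.41 and 1.5 ± 0.707 (SD, n = 2). Neither gene had groups that stood apart. TP53INP1 had 1 and 6 in MCF10A and 2 and 5 in G12V, and GASK1B had 0 and 5 in MCF10A and 1 and 4 in G12V, so the means were equal at both.

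The difference of the means, G12V minus MCF10A, was -3 at EPS8L2, -1.5 at RGS12, -1 at SDC1, -0.5 at EFNB1 and 0 at TP53INP1 and GASK1B. At EPS8L2 the difference was slightly larger than the SD of either group, and at the other genes it was below the larger SD. By the exact two-sided permutation test over libraries p was 0.667 at EPS8L2 and 1 at the other genes, and 1 for all after Benjamini-Hochberg adjustment over the 6 genes. With 2 libraries in each group the test cannot go below 0.333. At 0 of the 6 genes did the peak numbers of the groups not overlap, beside 5.18% of all protein-coding genes. Fewer G12V peaks within both replicate numbers were seen at 1 of the 6, EPS8L2, and at 8.63% of all.

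**Figure D4:**
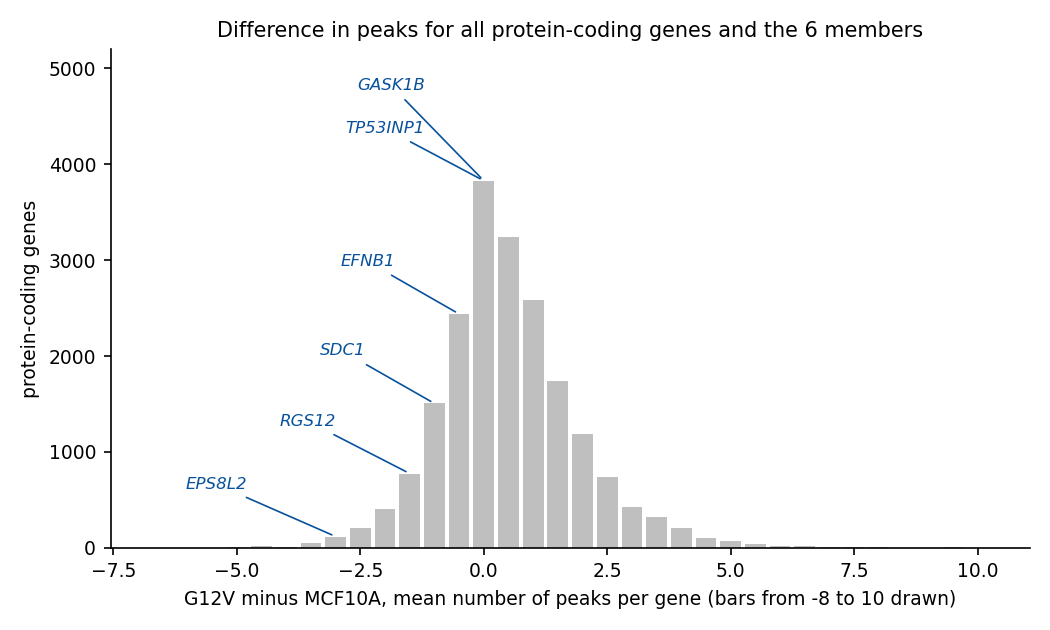
Number of protein-coding genes (y axis) by the difference in the mean number of peaks, G12V minus MCF10A (x axis), with the bars that hold the 6 genes labelled. EPS8L2 is at -3, and TP53INP1 and GASK1B are at 0.

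Read against all genes, the 6 lay on the lower side. Their median difference was -0.75, with 4 lower in G12V, 0 higher and 2 equal. Over all protein-coding genes the median was 0.5, with 5546 lower, 10723 higher and 3829 equal, as the histogram of differences shows. The G12V list was the longer in each replicate number, and this difference moves with list length. Per 10000 peaks of the list, the 6 genes together had 10.1 and 10.2 peaks in MCF10A and 5.70 and 5.999 in G12V. On this scale 5 of the 6 genes were lower in G12V and 1 higher, and over all genes 10512 were lower and 8822 higher.

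SDC1 had 3.88 and 2.90 peaks per 10000 in MCF10A and 2.14 and 2.14 in G12V. EPS8L2 had 3.10 and 2.32 in MCF10A and 0.712 and 1.07 in G12V. At these 2 of the 6 genes both G12V libraries were below both MCF10A libraries, which held for 17.7% of all protein-coding genes. With equal lists SDC1 had 5 and 5 peaks in MCF10A against 3 and 3 in G12V, and EPS8L2 had 4 and 2 against 1 and 1. That order was again seen at 2 of the 6 genes, and at 8.55% of all. The 6 genes together then had 13 and 14 peaks in MCF10A and 8 and 8 in G12V. The exact permutation p of SDC1 and of EPS8L2 was 0.333 on both scales, the smallest the design allows.

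TP53INP1 went the other way with equal lists, at 1 and 2 peaks in MCF10A and 2 and 3 in G12V. Over all genes the split with equal lists was 7428 lower, 6360 higher and 6310 equal, beside 5 lower and 1 higher among the 6.

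The p53 motif was then searched in all the DNA of the 6 loci, accessible or not. The 1246898 bp held 72 matches, 10 of them with 2 mismatches and 62 with 3, and none with fewer. The motif read backwards without complementing, a control with the same bases but not their order, had 12. Over all regions the central window held the motif in 1.26% and the reversed motif in 0.2%. More matches than for the reversed motif were thus not particular to these loci. Of 2000 simulated random windows, 0.6% held a p53 match. How many of the 72 matches would arise by chance was not tested. Accessible regions covered 2.54% of the loci and held 4 of the 72 matches, and all 4 of these regions were in MCF10A libraries only. RGS12 had 19 matches in its longer locus, EPS8L2 13, SDC1 12, TP53INP1 11, GASK1B 10 and EFNB1 7. TP53INP1 and EFNB1 thus had matches nearby in DNA with no listed peak.

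A p53 match anywhere in the region was found in 4 of the 46 regions, beside 4.48% of all regions. Within the central 150-base window it was found in 2 of the 46, at GASK1B and RGS12, beside 1.26% of all. A p53 match in a region of MCF10A libraries only was found at 4 of the 6 genes and at 9.22% of all protein-coding genes. The study chose the 6 genes partly for such a trait in these libraries, so this contrast is not independent evidence. The 6 loci also held more peaks in MCF10A, and a locus with more peaks has more chances of such a region. Their median was 2 and 5.5 peaks in MCF10A and 1 and 4.5 in G12V. Over all protein-coding genes it was 1 and 3 in MCF10A and 1 and 4 in G12V. The shares of all genes, here and above, were not matched for peak number. Without MCF10A replicate 2 a p53 match in a region of MCF10A libraries only was found at 1 gene, SDC1, and with equal lists at 2. Over all regions a match anywhere was found in 9.05% of those in MCF10A libraries only, in 2.15% of those in G12V libraries only and in 4.49% of those in both. By 150-base window, 7.21% of lost and 0.564% of gained regions held a match. Only the SDC1 match lay in a region that both MCF10A libraries had. An AP-1 site (TGACTCA or TGAGTCA, both strands) lay in the central window of 7 of the 46 regions, 15.2% beside 15.8% of all regions. A CTCF match with up to 1 mismatch lay in 6 of the 46, 13.04% beside 6.53%.

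**Figure D5:**
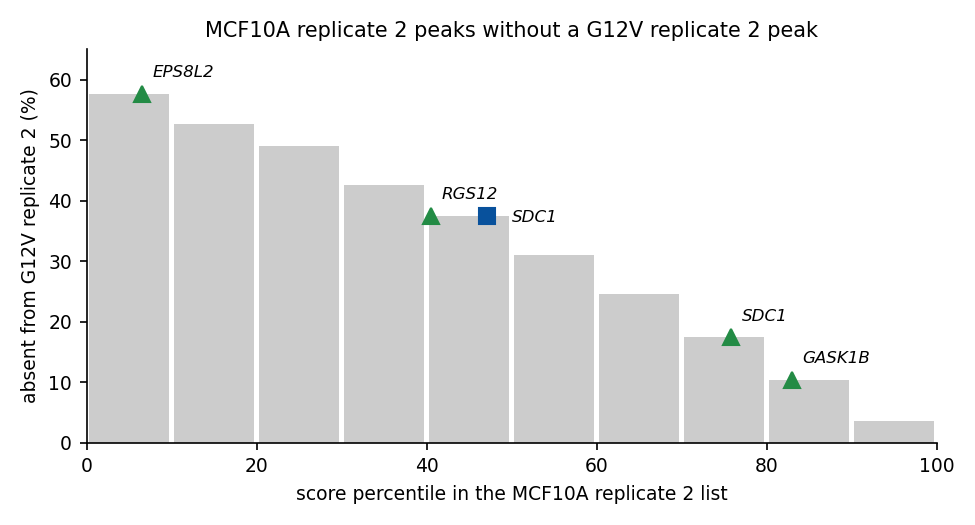
Share of MCF10A replicate 2 peaks without an overlapping G12V replicate 2 peak (y axis, %) by their score percentile (x axis, 10 bars). Triangles mark the peaks with a p53 match at EPS8L2, RGS12, SDC1 and GASK1B, and the square the second lost region of SDC1, each on top of the bar it falls in. The share falls from 57.6% to 3.60%.

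Weak peaks were often missing from the other list, whatever the gene. Of MCF10A replicate 2 peaks between percentiles 0 and 10, 57.6% had no overlapping peak in G12V replicate 2, and between 90 and 100 only 3.60% had none. The EPS8L2 match at percentile 6.47 lay in the weakest group, as the plot of absent peaks shows. The RGS12 match and the second SDC1 lost region lay between percentiles 40 and 50, where 37.5% were absent. The SDC1 match lay between 70 and 80, where 17.4% were absent, and the GASK1B match between 80 and 90. The part of list length and peak strength in these absences was not tested.

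Peaks at the promoter of the 5′ end of each gene followed another order. TP53INP1 had a peak there in all 4 libraries, EFNB1 in 3, RGS12 in both replicate 2 libraries, SDC1 and GASK1B in G12V replicate 2 and EPS8L2 in MCF10A replicate 1. The EPS8L2 entry rests on the promoter limit of 500 bp, since the peaks of MCF10A replicate 2 and G12V replicate 2 in the same region began 567 and 611 bp downstream of the 5′ end. In G12V replicate 2 a total of 5 of the 6 had such a peak, beside 43.8% of all protein-coding genes. In MCF10A replicate 2 there were 3, beside 41.1%. In the shorter lists there were 3 in MCF10A replicate 1, beside 20.4%, and 1 in G12V replicate 1, beside 22.2%.

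Among 24 other well-known p53 targets, 2 had a lost region and 4 a gained one, beside 10% and 16% of all protein-coding genes. XPC, which recognizes DNA damage in nucleotide excision repair, had 1 lost region. CCNG1, cyclin G1, had 1 lost and 2 gained regions. GADD45A, a growth arrest gene, ZMAT3, an RNA-binding protein, and TP53I3, an oxidoreductase, had 1 gained region each. CDKN1A, the cell cycle inhibitor p21, and CCNG1 had a p53 match in a region of MCF10A libraries only, 2 of 24 beside 9.22% of all. The median difference in peaks of the 24 genes was 0.5, with 7 lower in G12V, 15 higher and 2 equal. That median is the same as the median over all protein-coding genes.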

How the data were processed

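ATAC-seq peak lists of 4 libraries were used, 2 of MCF10A and 2 of G12V. Per the submitters' processing notes and the study's methods, the authors aligned reads to hg19 with Bowtie, kept unique reads and shifted the start of each read to where the transposon had bound. They ran MACS on these positions (tag size 51, shift size 75, local window 25000 bp, p threshold 1e-04). The study pooled replicates for its own calls, whereas each list used here is of 1 library. The deposited score of a peak is the MACS score, 10 times the negative log10 of its p-value, and grows with depth. It was compared only within a list, as a percentile or rank, and is printed as deposited.

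Peaks on the autosomes and X were merged over libraries by an overlap of at least 1 bp. Genes came from GENCODE 44 mapped to GRCh37, and 0 peaks ran past a chromosome end. Peaks per gene were compared by an exact permutation test over libraries. Motifs were searched on both strands with up to 3 mismatches for p53, in the whole region and in 150 bp at the midpoint of its best peak. Merging, classes and the motif search were tested on simulated data. Python 3.11.15, numpy 2.4.6, scipy 1.17.1 and pysam 0.24.0 were used. The members and lists were chosen with earlier results of these data known. Named regions were those lost, gained, in all 4 lists, at a promoter of a member or with a p53 match. The 2 further regions downstream of SDC1 and those at neighbouring genes' promoters, and CDKN1A, were added after their values were seen. Alternatives were equal lists, the best 50% of each list, other windows, starts, overlaps, class rules and mismatches, the replicate block and leaving out each library.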

Additional observations from a re-analysis of the deposited data

How the results depend on the processing

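The peak lists give no read depth, so a locus without a peak may be open below the threshold, and 2 libraries per cell type allow no p under 0.333. With equal lists the difference in mean peaks, G12V minus MCF10A, was 1 at TP53INP1 and -0.5 at GASK1B, in place of 0 at both. With the best 50% of each list it was 0.5 at EFNB1, in place of -0.5, and 0.5 at TP53INP1 and 1 at GASK1B. Per 10000 peaks it was -0.0107 at TP53INP1 and 0.0592 at GASK1B. With a 50 kb window it was -0.5 at TP53INP1, with the gene body and promoter only -0.5 at GASK1B, and with every annotated start 0.5 at GASK1B. The cause of these moves was not tested.

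Leaving out each library in turn moved the difference from -4.5 to 2.5 at SDC1, -4 to 1 at RGS12, -1.5 to 0.5 at EFNB1 and -2.5 to 2.5 at TP53INP1 and GASK1B. At EPS8L2 it ranged from -5 to -1. The EPS8L2 difference of -3 was -0.5 with the best 50% of each list, -1.5 with a 50 kb window or the gene body and promoter only, and -2 with equal lists or every annotated start. The sign turned without MCF10A replicate 1 at EFNB1 (0.5), without MCF10A replicate 2 at SDC1 (1.5) and RGS12 (1), and without G12V replicate 1 at SDC1 (2.5). It was 0 at EFNB1 without G12V replicate 1. The lists differ in length between replicates, so leaving out a long or a short one shifts a mean by construction.

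The lost count of 2 was 17 when a peak in either replicate sufficed, and from 2 to 14 without 1 library (14 without MCF10A replicate 1, 5 without MCF10A replicate 2, 7 without G12V replicate 2). With equal lists the lost count was 3, at SDC1 and EPS8L2. The gained count with equal lists was again 1, but the region was at SDC1 in place of EPS8L2. Over all 26133 regions of the equal lists, 1357 were lost and 1369 gained, so the shares of all regions also differed from those of the full lists. The gained count of 1 was 8 with a peak in either replicate, 0 with a 50 kb window, and from 1 to 7 without 1 library (4 without MCF10A replicate 2, 7 without G12V replicate 1, 2 without G12V replicate 2). Fewer libraries make both rules easier to meet. The 2 regions with a p53 match in the 150 bp window were 0 with 2 mismatches, 4 in the whole region, 6 with a spacer of up to 13 bases and from 0 to 2 without 1 library, with 0 without MCF10A replicate 2. The 4 genes with a p53 match in a region of MCF10A libraries only were examined under alternatives chosen after seeing the data. They were 2 with equal lists, 2 with the best 50% of each list, 1 with 2 mismatches, 2 by the 150 bp window and from 1 to 4 without 1 library.

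With the replicate number as a block (replicate block), the differences were the same by construction, with -3 at EPS8L2, -1.5 at RGS12, -1 at SDC1, -0.5 at EFNB1 and 0 at TP53INP1 and GASK1B, and with 2 lost regions and 1 gained. The numbers are not stated to mark a batch, and the deviations of same-numbered libraries from their group means had a correlation of -0.113 over 60886 regions. Only loci with a peak in some library enter, and 34328 were in a single library, so this value cannot decide whether the numbers pair. Over all regions 9940 were in both libraries of 1 number alone. Another 896 were in 1 library of each cell type with different numbers. At the members these counts were 10 and 0. Crossing the numbers, added after seeing the data, also left 2 lost regions and 1 gained.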
